A study of Homo sapiens with 19 samples.

Results

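The middle stretch of 28S ribosomal RNA (rRNA), positions 2001 to 3500 in the numbering of the deposited tables, was examined in the established cell line Kasumi-1, which derives from an acute myeloid leukaemia. It was defined by position, with earlier results of these data known. It comprised 1500 of the 7000 rRNA positions counted and 17 of the 120 listed methylation sites. Of the other listed sites 54 were in the rest of 28S and 47 in 18S rRNA. The 17 sites ran from 28S-2338 to 28S-2863, with no listed site at the 337 positions before them or the 637 after them.

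RiboMethSeq was run on 19 libraries in 11 groups. All 14 knockdown (KD) libraries, controls included, came from cells given doxycycline at 100 ng/ml, in 7 groups of 2. Control KD was made without a vector and with an empty one, and FBL KD likewise; FBL KD was further combined with wild-type FBL, FBLTri or FBLQua. The other 5 libraries received no treatment. They were SNORD127 knockout clone C1, clone C34, clone C1 with an empty vector, clone C1 with SNORD127 put back, and a control clone, each 1 library; clone C1 and its derivatives share a clone. Column names of control KD contain shLUC1 and shLUC2 without vector and shLUC with empty vector. Those of FBL KD contain shFBL1 and shFBL2 without vector and shFBL4 with a vector. Without vector, 1 and 2 are also the replicate numbers in both groups. Whether the FBL KD numbers mark hairpins is not stated. If they do, hairpin and vector background cannot be told apart, and the 2 FBL KD libraries without vector differ in hairpin. Titles and column names of the mutants conflict: FBLTri libraries have columns named Dual, and FBLQua libraries have columns named Tri. The titles were followed, so each mutant value rests on them. The control clone also rests on its title, since its column name has the KO form of the knockout clones. No source says that replicates came from separate cultures. The p-values therefore reflect only how far these libraries spread, which may be technical. FBL and SNORD127 transcripts are not in an rRNA end count, so neither loss could be checked at the transcript.

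Fibrillarin (FBL) is the methyltransferase of box C/D small nucleolar ribonucleoproteins. In these particles a guide RNA of the SNORD family base-pairs with pre-rRNA and places FBL at a single nucleotide, whose ribose gains a methyl group on the 2′ oxygen. Most guides are cut out of introns of host genes, many of which encode ribosomal proteins or are long non-coding RNAs that carry several guides. RiboMethSeq breaks RNA in alkali, and the methyl group protects the adjoining bond, so that few fragments end there.

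The readout was score C, which is 1 minus the number of fragment ends at a site divided by the weighted mean over 6 positions on either side. A score near 1 means that few ends were found there, 0 means as many as around it, and a negative score more than around it. The ends of a site are read 1 position downstream in the count table, and end counts are given below by table position. Negative values were kept here, whereas the deposited scores have them set to 0. They occurred in 16 values at 3 of the 17 sites: in 10 libraries at 28S-2402, in 4 at 28S-2739 and in 2 at 28S-2388.

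The deposited annotation gave a named guide for 14 of the 17 sites, 12 guides in all. All 12 matched a human gene in the RefSeq table of assembly GRCh38.p14, which was used for names and for the genes around them. SNORD24, placed within RPL7A, was listed for both 28S-2338 and 28S-2352. SNORD76 (within GAS5) was listed for 28S-2350, SNORD68 (within RPL13) for 28S-2388, and SNORD143 with SNORD144 (both within the spans of SEC31A and THAP9-AS1) for 28S-2402. SNORD5 and SNORD6, both within TAF1D, were listed for 28S-2409 and 28S-2411. SNORD99 (within SNHG12) was listed for 28S-2774, SNORD55 for 28S-2791, SNORD34 (within RPL13A) for 28S-2824, SNORD95 (within RACK1) for 28S-2802 and 28S-2811, and SNORD50A (within SNHG5) for 28S-2848 and 28S-2863. The other 3 sites have no named guide: the entry of 28S-2351 reads SNORD without a number, and those of 28S-2527 and 28S-2739 read Unknown. Another listed site lay within 6 nucleotides at 5 sites (28S-2350, 28S-2351, 28S-2352, 28S-2409 and 28S-2411) and so inside the flanks of the score; the other 12 had none.

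Libraries held 5533150 to 18835537 end counts, of which 10.7 to 51.1% fell in the stretch. Positions 2301 to 2500 carried most of these and split the libraries. They held 45.5% and 49.7% of all ends in FBL KD without vector and 36.2% in replicate 2 of control KD without vector, against 7.05 to 11.3% in the other 16 libraries. Position 2401, within the flanks of 28S-2402, had the most ends in 18 libraries, and position 2361 in replicate 2 of control KD with empty vector. The pile ended abruptly. Position 2424 had fewer ends than position 2423 in every library, by a median of 9.60 times in those 16 and by 233 to 532 times in the other 3. Over the 17 sites the mean flanking count had a median of 4661, from 55.6 at 28S-2527 to 112349 at 28S-2402. Counting error gave a score a 95% interval of plus or minus 0.0107 in the median and up to 0.155 at 28S-2739. These intervals cover counting error only, since no molecular identifiers are recorded and reads may repeat a molecule.

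**Figure D1:**
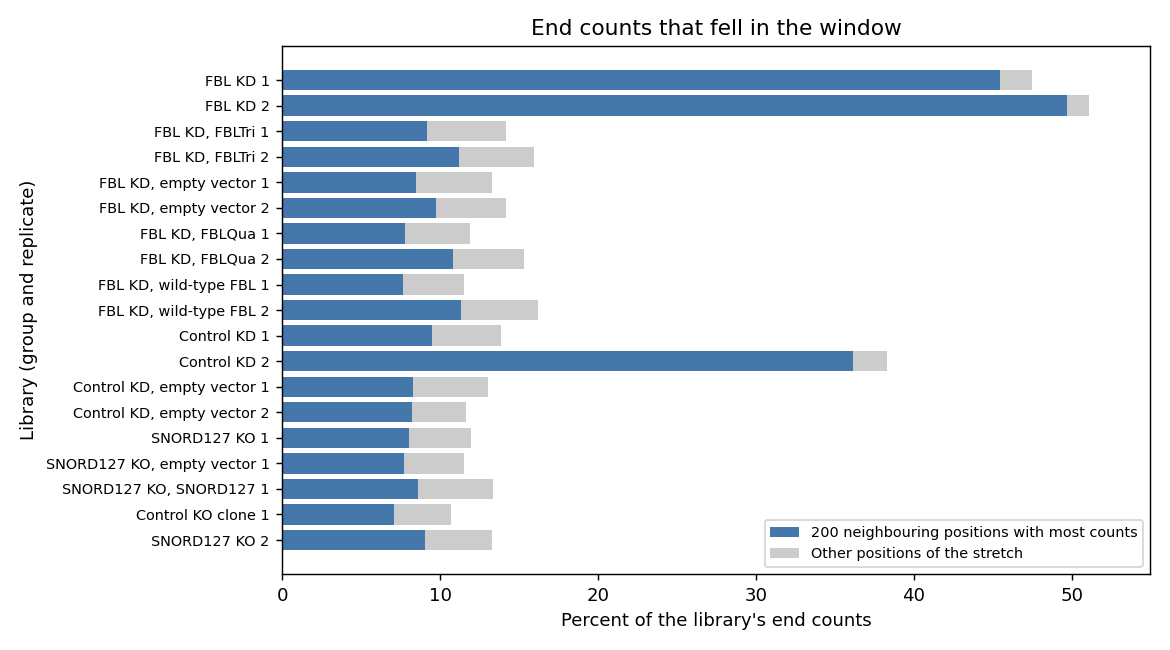
Percent of each library's end counts that fell in 28S positions 2001 to 3500, by library; the dark bar is the share of positions 2301 to 2500 and the light bar that of the remaining positions. Both FBL KD libraries without vector and replicate 2 of control KD without vector stand at 36.2 to 49.7% for the dark bar, and the other 16 at 7.05 to 11.3%.

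FBL KD lowered score C at 15 of the 17 sites over both vector backgrounds and raised none (limma, adjusted p under 0.05, adjusted over all 120 sites). Over the 120 sites 70.8% were called lower and 1.67% higher. The 15 were the 14 sites with a named guide and 28S-2351, and the 2 not called were the Unknown entries. The median change was -0.188 over the 17 sites, against -0.088 over all 120, -0.129 in the rest of 28S and -0.044 in 18S. At 15 of 17 sites each of the 4 FBL KD libraries lay below each of the 4 control KD libraries, or 88.2%, against 59.2% of all sites. The control KD libraries had a mean score over the 17 sites of 0.859 ± 0.012 (SD, n = 4, pooled over backgrounds), and the FBL KD libraries one of 0.592 ± 0.083 (SD, n = 4). The rest of 28S had means of 0.906 and 0.764. These are descriptions, with no test of the stretch against the rest.

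28S-2402, the SNORD143 and SNORD144 site, had the largest change of the 120 sites. It scored 0.466 and 0.460 in control KD and -0.448 and -0.429 in FBL KD without vector, and 0.652 and 0.662 in control KD and -0.674 and -0.728 in FBL KD with empty vector. All control libraries were above 0 and all FBL KD libraries below it, with no overlap. The change over both backgrounds was -1.13 (SE 0.038, adjusted p = 8.78e-09 by limma). With negative scores set to 0 it was -0.560, since all 4 FBL KD libraries then read 0. Position 2401, the most counted position, is among its flanks. A change above 1 in size therefore counts ends in excess of the flanks and is no share of methylated molecules.

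28S-2388, the SNORD68 site, scored 0.942 and 0.943 in control KD and 0.555 and 0.558 in FBL KD without vector. With empty vector its scores were 0.928 and 0.907 in control KD and 0.0945 and 0.151 in FBL KD. The groups did not overlap, and FBL KD libraries with empty vector were the lowest. The change over both backgrounds was -0.590 (SE 0.024, adjusted p = 1.32e-08 by limma), the third in size of the 120 sites.

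SNORD50A is listed for 28S-2848 and 28S-2863, which lie 15 nucleotides apart. 28S-2863 scored 0.764 and 0.746 in control KD against 0.237 and 0.366 in FBL KD without vector, and 0.701 and 0.774 against 0.0615 and 0.0722 with empty vector. 28S-2848 scored 0.854 and 0.885 against 0.614 and 0.721 without vector, and 0.859 and 0.856 against 0.344 and 0.411 with empty vector. At both sites all FBL KD libraries were below all controls. The changes were -0.562 (SE 0.037, adjusted p = 2.76e-07 by limma) at 28S-2863 and -0.341 (SE 0.042, adjusted p = 3.01e-05) at 28S-2848.

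SNORD95 is likewise listed for 28S-2802 and 28S-2811, 9 nucleotides apart. 28S-2811 scored 0.977 and 0.976 in control KD against 0.709 and 0.700 in FBL KD without vector, and 0.977 and 0.905 against 0.561 and 0.558 with empty vector. Its control and FBL KD libraries did not overlap, and the change was -0.327 (SE 0.016, adjusted p = 2.77e-08 by limma). 28S-2802 scored 0.963 to 0.986 in the control libraries, and 0.907 and 0.890 in FBL KD without vector and 0.757 and 0.774 with empty vector. Its change was -0.142 (SE 0.009, adjusted p = 1.71e-07 by limma). SNORD24 also has 2 sites here, of which 28S-2352 changed by -0.216 (SE 0.027, adjusted p = 3.55e-05) and 28S-2338 by -0.111 (SE 0.007, adjusted p = 2.87e-07). Whether sites of the same guide differed in change was not tested.

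28S-2774, the SNORD99 site, scored 0.839 and 0.876 in control KD against 0.586 and 0.628 in FBL KD without vector, and 0.844 and 0.852 against 0.494 and 0.499 with empty vector. 28S-2791, the SNORD55 site, scored 0.972 and 0.989 against 0.789 and 0.802, and 0.973 and 0.968 against 0.705 and 0.723. No FBL KD library reached a control at either site. The changes were -0.301 (SE 0.024, adjusted p = 1.00e-06 by limma) and -0.221 (SE 0.010, adjusted p = 1.63e-08). 28S-2352 scored 0.953 and 0.963 in control KD against 0.775 and 0.771 in FBL KD without vector, and 0.962 and 0.828 against 0.623 and 0.673 with empty vector. Its low control value came from replicate 2 with empty vector, 0.134 below replicate 1, and still exceeded every FBL KD library.

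The other 6 sites that fell were 28S-2411 (SNORD6), 28S-2409 (SNORD5), 28S-2824 (SNORD34), 28S-2338 (SNORD24), 28S-2350 (SNORD76) and 28S-2351, with changes from -0.188 to -0.068 and adjusted p of 4.64e-07 or less by limma. All 6 had a mean control score of 0.976 or more. Part of the change at close neighbours can be shared through the flanks. With the positions of other listed sites left out of the flanks, the changes were -0.080 in place of -0.104 at 28S-2350, -0.056 in place of -0.068 at 28S-2351 and -0.189 in place of -0.216 at 28S-2352. They were -0.163 in place of -0.179 at 28S-2409 and -0.170 in place of -0.188 at 28S-2411. Each of these 5 sites was still called lower.

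At the 2 Unknown entries no change was called. 28S-2527 scored 0.752 and 0.604 in control KD and 0.739 and 0.748 in FBL KD without vector, and 0.824 and 0.751 against 0.768 and 0.782 with empty vector. The groups overlapped, and the change was 0.027 (95% interval -0.041 to 0.095, adjusted p = 0.434 by limma). 28S-2739 scored 0.310 and 0.393 in control KD and 0.377 and 0.568 in FBL KD without vector, but -0.0746 and 0.0596 against -0.0221 and 0.105 with empty vector. It was the lowest of the 17 sites in the mean of the control libraries, at 0.172, and its change was 0.085 (95% interval -0.055 to 0.225, adjusted p = 0.242). Both sites had the lowest flanking counts of the 17, and changes inside these intervals are not excluded. What is behind the missing calls was not tested.

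**Figure D2:**
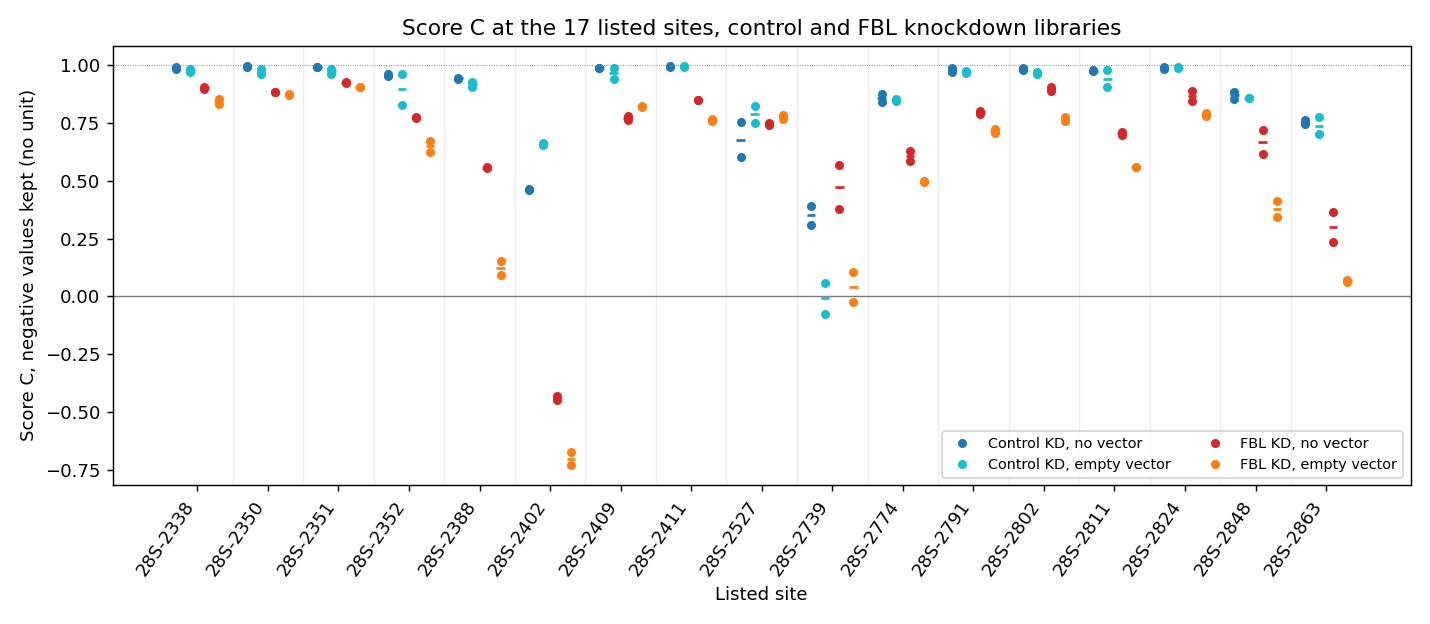
Score C, which has no unit and keeps negative values, at each of the 17 listed sites in the 4 control KD and 4 FBL KD libraries without re-expressed FBL; points are libraries and short bars the group means. At 15 sites every FBL KD point lies below every control point, and at 28S-2527 and 28S-2739 they overlap.

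These calls are on the scale of the score. The median score of a library over the 120 sites fell by 0.118 in FBL KD. With library medians made equal, which adds that shift back to every site, 12 of the 17 sites were called lower and 3 higher, against 38 lower and 55 higher of the 120. The 3 higher ones were 28S-2351 (0.050), 28S-2527 (0.145) and 28S-2739 (0.203). 28S-2338 and 28S-2350 were then not called. The 8 sites with the largest change stayed lower. With each library left out in turn, 15 or 16 of the sites were called.

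The effect was next taken within each vector background; these comparisons have no library in common. Without vector 15 of the 17 sites were lower and 0 higher, where 60.0% and 0.833% of the 120 were. With empty vector 15 were lower and 0 higher, where 67.5% and 0.833% were (limma, adjusted p under 0.05). Equal library medians changed this to 9 lower and 2 higher without vector, where 29 and 49 of the 120 were, and to 11 lower and 3 higher with it, where 34 and 55 were. The comparison with empty vector included none of the 3 libraries with 36.2 to 49.7% of their ends at positions 2301 to 2500. Fitted on its own 4 libraries it again called 15 sites lower. The control KD replicates without vector had 13.9 and 38.3% of their ends in the stretch. Over the 8 sites from 28S-2338 to 28S-2411 their scores differed by at most 0.0102, and over all 17 by up to 0.148, at 28S-2527. What the pile did to the scores was not tested.

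The size of the effect differed between backgrounds at 10 of the 17 sites by the interaction test: 9 had a larger loss with empty vector and 1, 28S-2409, a smaller one (limma, adjusted p under 0.05). Over the 120 sites 25.0% and 5.0% were called in these directions. The difference, effect with empty vector minus effect without, was -0.457 at 28S-2402 (SE 0.076, adjusted p = 0.00276) and -0.408 at 28S-2388 (SE 0.047, adjusted p = 0.000996). At 28S-2402 the control KD mean was also higher with empty vector, 0.657 against 0.463 without. With negative scores set to 0 the difference there was -0.194, all of it from the controls. At 28S-2848 it was -0.278 (SE 0.083, adjusted p = 0.0342) and at 28S-2802 -0.116 (SE 0.017, adjusted p = 0.00243).

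28S-2411 scored 0.994 to 0.995 in the control libraries, 0.850 and 0.848 in FBL KD without vector and 0.766 and 0.760 with empty vector, a difference of -0.087 (SE 0.013, adjusted p = 0.00243 by limma). Its neighbour 28S-2409 went the other way, with 0.763 and 0.781 in FBL KD without vector, 0.825 and 0.818 with empty vector and 0.942 to 0.989 in the controls, a difference of 0.073 (SE 0.022, adjusted p = 0.0346). The guides of both sites, SNORD6 and SNORD5, lie within TAF1D. The remaining 4 sites called in the interaction were 28S-2811 at -0.109, 28S-2824 at -0.083, 28S-2791 at -0.072 and 28S-2338 at -0.047, with SE of 0.015 to 0.031 and adjusted p of 0.0172 to 0.0375.

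These differences were less stable than the loss itself. The number called was 1 on a log2 scale of the ratio of ends to flanks, namely 28S-2402, and 5 when the compared groups were fitted alone. It was 6 and 5 without replicate 1 and 2 of FBL KD with empty vector, and 6 and 5 without replicate 1 and 2 of control KD without vector. With library medians made equal it was 6, of which 3 were lower and 3 higher, against 12 and 18 of the 120. On the log2 scale the direction reversed at 28S-2811, 28S-2791 and 28S-2338. Positions 2301 to 2500 held 36.2 to 49.7% of the ends in 3 of the 4 libraries without vector, and 8.22 to 9.71% in those with empty vector. The part of this larger pile in the difference was not tested. Column names of the FBL KD libraries differ between the backgrounds as well, as given above, so background and that number cannot be told apart.

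**Figure D3:**
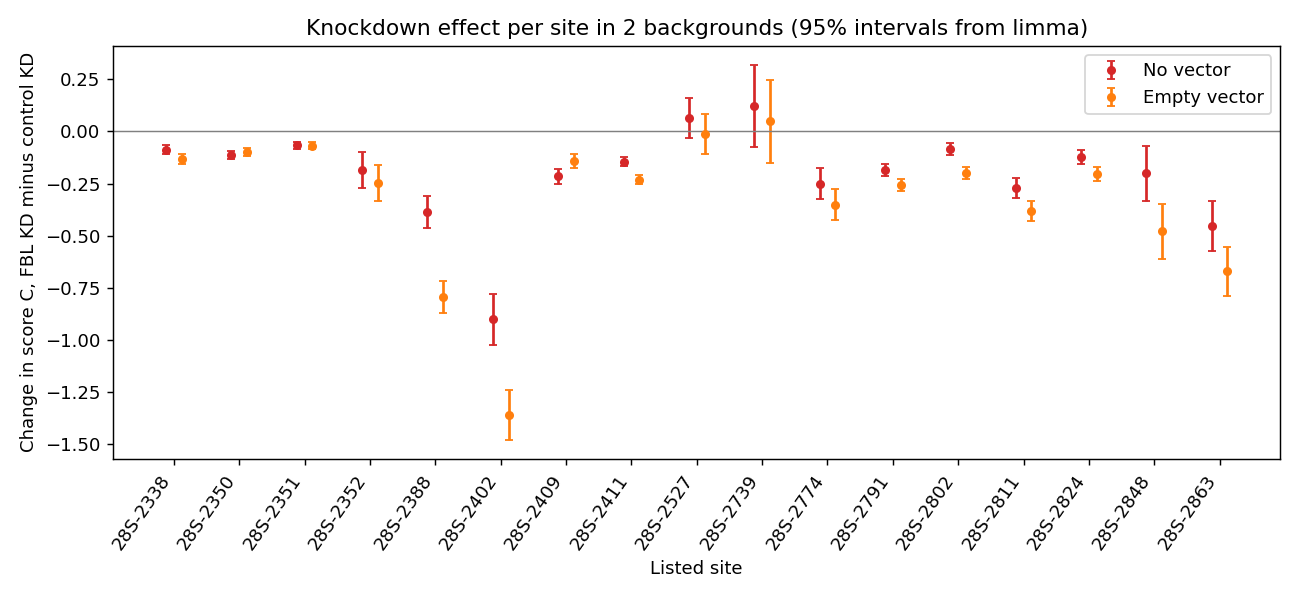
Change in score C, FBL KD minus control KD, at each of the 17 sites without vector and with empty vector (2 libraries per group); bars are 95% intervals from limma. The intervals of the 2 backgrounds stand clear of each other at the 10 sites called in the interaction and include 0 in both at 28S-2527 and 28S-2739.

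Wild-type FBL put back into FBL KD cells was compared with the empty vector, whose libraries also serve in the comparison above. It raised score C at 15 of the 17 sites and lowered none, where 58.3% of the 120 sites were called higher and 1.67% lower (limma, adjusted p under 0.05). The sites not called were again 28S-2527 and 28S-2739. The median change was 0.155 over the 17 sites and 0.058 over all 120. The mean score of the 17 was 0.521 ± 0.011 with empty vector and 0.704 ± 0.010 with wild-type FBL, against 0.849 ± 0.007 in control KD with empty vector (SD, n = 2).

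28S-2388 scored 0.579 and 0.606 with wild-type FBL against 0.0945 and 0.151 with empty vector, a rise of 0.470 (SE 0.034, adjusted p = 1.87e-06 by limma) that was the largest of the 120 sites. 28S-2402 scored -0.247 and -0.296 against -0.674 and -0.728, a rise of 0.430 (SE 0.054, adjusted p = 6.62e-05), and so remained below 0. With negative scores set to 0 this change read 0. 28S-2863 scored 0.453 and 0.364 against 0.0615 and 0.0722, a rise of 0.342 (SE 0.053, adjusted p = 0.000277).

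28S-2848 rose by 0.279 (SE 0.059, adjusted p = 0.00221 by limma) to 0.728 and 0.587, and 28S-2811 by 0.277 (SE 0.022, adjusted p = 3.86e-06) to 0.831 and 0.841. At each of these 5 sites both wild-type libraries lay above both empty-vector libraries. The 5 sites were picked as the largest rises called in the stretch, so this separation adds no support to the calls. How many of the 120 sites showed it was not counted. The other 10 sites called rose by 0.066 to 0.186. With library medians made equal, which had moved by 0.096, 8 sites were called higher and 1, 28S-2351, lower, against 22 higher and 49 lower of the 120.

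Against control KD with empty vector, cells with wild-type FBL were lower at 11 of the 17 sites and higher at 0, where 28.3% and 1.67% of the 120 were (limma, adjusted p under 0.05). 28S-2402 again had the largest difference of the 120 sites, -0.928 (SE 0.054, adjusted p = 1.94e-06). 28S-2863 differed by -0.329 (SE 0.053, adjusted p = 0.00152), 28S-2388 by -0.325 (SE 0.034, adjusted p = 0.00018), 28S-2848 by -0.200 (SE 0.059, adjusted p = 0.0259) and 28S-2774 by -0.196 (SE 0.034, adjusted p = 0.00195). The call at 28S-2848 was lost without replicate 2 of wild-type FBL (-0.130), without replicate 1 or 2 of the control (-0.199 and -0.202) and with library medians made equal (-0.159). The other 6 sites called were 28S-2338, 28S-2411, 28S-2791, 28S-2802, 28S-2811 and 28S-2824, with differences from -0.104 to -0.040.

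The 6 not called were the Unknown entries and 4 of the 5 sites with a close neighbour: 28S-2350, 28S-2351, 28S-2352 and 28S-2409. At these 4 the control libraries themselves spread from 0.959 to 0.983, 0.963 to 0.982, 0.828 to 0.962 and 0.942 to 0.988, in that order. The wild-type means were 0.960, 0.971, 0.834 and 0.953, each inside that spread. The missing calls are therefore no measure of full recovery. At 28S-2350 and 28S-2351 the differences were -0.011 (95% interval -0.031 to 0.008) and -0.002 (95% interval -0.018 to 0.013). At 28S-2409, where the scores were 0.953 in both wild-type libraries and 0.988 and 0.942 in the controls, it was -0.012 (95% interval -0.047 to 0.023). 28S-2352 differed by -0.061, with a wider interval of -0.146 to 0.025. With library medians made equal the split was 6 lower and 2 higher, against 13 and 26 of the 120.

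FBLTri and FBLQua were compared with wild-type FBL. FBLTri was lower at 15 of the 17 sites and FBLQua at 15, where 65.0% and 60.8% of the 120 sites were called, and no site of the 17 was higher with either (limma, adjusted p under 0.05; 0.0% and 0.833% of the 120). 28S-2388 scored -0.0355 and -0.0623 with FBLTri and 0.00492 and 0.0433 with FBLQua, or -0.641 (SE 0.034, adjusted p = 2.43e-07) and -0.568 (SE 0.034, adjusted p = 1.12e-06) against wild type. These were the largest differences of the 120 sites in either comparison.

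28S-2848 scored 0.172 in both FBLTri libraries but 0.462 and 0.319 with FBLQua, or -0.485 (SE 0.059, adjusted p = 4.93e-05 by limma) and -0.267 (SE 0.059, adjusted p = 0.00292) against wild type. The mutants did not overlap there; their difference was not tested. 28S-2402 scored -0.550 and -0.599 with FBLTri and -0.634 and -0.682 with FBLQua, with differences of -0.303 (SE 0.054, adjusted p = 0.000749) and -0.387 (SE 0.054, adjusted p = 0.000159). Wild-type FBL was below 0 there as well, so with negative scores set to 0 both differences read 0 and were not called. At 28S-2791 the differences were -0.246 and -0.211, and at 28S-2774 -0.208 and -0.220. Equal library medians left FBLTri with 8 lower and 1 higher site, against 26 and 39 of the 120, and FBLQua with 8 lower and 2 higher, against 24 and 41.

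Against the empty vector the mutants gave changes in both directions. FBLTri was lower at 5 and higher at 5 of the 17 sites, where 22.5% and 17.5% of the 120 were called (limma, adjusted p under 0.05). The changes at the lower sites were -0.206 at 28S-2848 (SE 0.059, adjusted p = 0.0231), -0.172 at 28S-2388 (SE 0.034, adjusted p = 0.00282) and -0.085, -0.079 and -0.048 at 28S-2338, 28S-2791 and 28S-2802. It was higher at 28S-2863, where it scored 0.244 and 0.276 against 0.0615 and 0.0722, by 0.193 (SE 0.053, adjusted p = 0.0182).

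FBLTri was also higher at 28S-2411 by 0.100 (SE 0.009, adjusted p = 2.44e-05 by limma), at 28S-2811 by 0.092 (SE 0.022, adjusted p = 0.0094), at 28S-2824 by 0.084 and at 28S-2409 by 0.050. The sites of SNORD50A were thus called in opposite directions, 28S-2848 lower and 28S-2863 higher, and so were those of SNORD95, 28S-2802 lower and 28S-2811 higher. The number of sites called was 5 and 6 without replicate 1 and 2 of FBLTri, 6 without replicate 2 of the empty vector, and 0 on the log2 scale. 28S-2402, with a change of 0.127 (adjusted p = 0.095), was not called.

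FBLQua differed from empty vector at 2 of the 17 sites, where 16.7% of the 120 were called in either direction (limma). It was lower at 28S-2338, with a change of -0.055 (SE 0.010, adjusted p = 0.0056), and higher at 28S-2411, with 0.061 (SE 0.009, adjusted p = 0.00121). 28S-2863 had the largest change of the 120 sites in that comparison, 0.169 (95% interval 0.051 to 0.286), and was not called (adjusted p = 0.0515). Neither site was called when the compared groups were fitted alone or on the log2 scale, and without replicate 1 of the empty vector 1 site, 28S-2411, was called. 28S-2402 changed by 0.043 (adjusted p = 0.683).

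**Figure D4:**
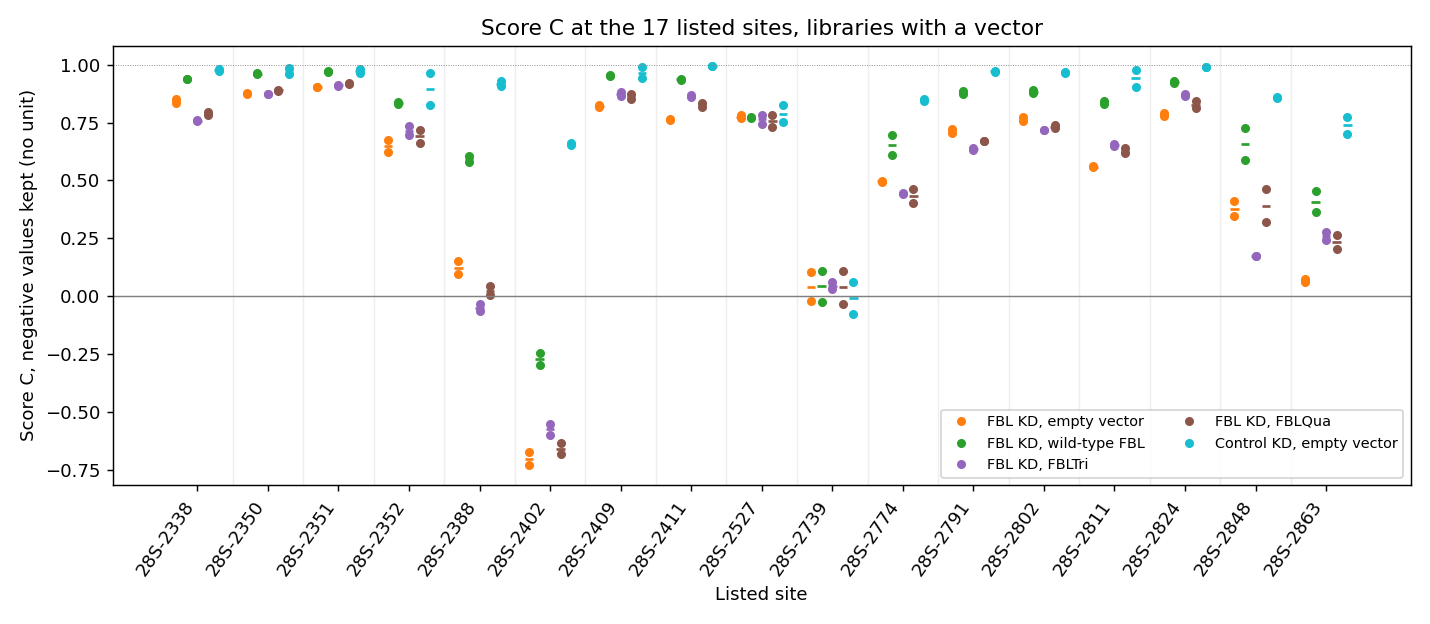
Score C, which has no unit and keeps negative values, at the 17 sites in the 5 groups of 2 libraries with a vector; points are libraries and short bars group means. Wild-type FBL lies between empty vector and control KD at 28S-2388, 28S-2402 and 28S-2863, and both mutants lie below wild-type FBL at these 3 sites.

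SNORD127 is listed for a site in 18S rRNA and for none of the 17. SNORD127 absent (clones C1, C34 and C1 with empty vector) was set against SNORD127 present (the control clone and C1 with SNORD127). Of the 17 sites 0 were lower and 0 higher by limma, where 0.833% and 0.0% of the 120 were called. The 1 site called lower was among the 47 in 18S. No site of the 17 had an unadjusted p under 0.05 either, and 0 were called under the 10 other settings tried, all with limma. At 28S-2402 the 5 libraries scored 0.379, 0.413, 0.399, 0.353 and 0.412 in the order C1, C1 with empty vector, C34, control clone and C1 with SNORD127. The change was 0.014 (95% interval -0.090 to 0.119).

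The 5 untreated libraries lay close together. The range over them was widest at 28S-2739, 0.0819, and at 28S-2402, 0.0599, and narrowest at 28S-2411, 0.00214. Their mean score over the 17 sites was 0.839 to 0.846, a range that overlaps that of the control KD libraries, 0.844 to 0.869. At 28S-2402 all 5 lay below all 4 control KD libraries (0.460 to 0.662). These groups differ in clone, knockdown construct and doxycycline, which cannot be told apart.

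Since only listed sites carry a score in the deposited table, every position was then tested, listed or not. For each position the end count was modelled with edgeR's quasi-likelihood test against the mean of its own flanks in the same library, so that a rise means less protection. Of the 1500 positions 917 had a mean flank of at least 50 counts and were tested; 583 were not. From the first to the last listed site 524 of 526 positions were tested, before it 234 of 338 and after it 159 of 636; the scan starts 1 nucleotide earlier than the table positions, as a nucleotide is read 1 position downstream. Coverage after 28S-2863 was low, with a median position count of 0 in the median library between 3101 and 3200.

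In FBL KD against control KD over both backgrounds, 15 of the 917 positions rose and 0 fell (edgeR, adjusted over 5444 positions), where 1.29% of all tested positions rose and 0.0% fell. The 15 were the same 15 listed sites as above. 28S-2411 rose by 4.97 on the log2 scale (adjusted p = 8.27e-10), 28S-2824 by 4.08 and 28S-2350 by 3.36. The smallest rises were 1.59 at 28S-2774, 1.67 at 28S-2863, 1.73 at 28S-2848 and 1.87 at 28S-2402. The order thus depends on the scale: 28S-2402 ranked the highest by score and among the lowest by ratio.

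Of the 156 tested positions within 6 nucleotides of a listed site and the 744 further away, 0 and 0 were called by edgeR, with 14 and 55 at an unadjusted p under 0.05. These are 8.97% and 7.39%, where 9.16% of the 917 tested positions, listed sites included, had such a p. On the same ratio limma called 0 and 1, the latter 28S-2657, which rose by 0.52 (adjusted p = 0.0409). DESeq2 called 1 and 3, all lower: 28S-2401, 28S-2015, 28S-2424 and 28S-2428. These 5 positions are named because the tools differed at them, after their values were seen. Of the 744 positions, 111 scored at least 0.5 in all 4 control KD libraries. EdgeR called 0 of these 111, with 18 at an unadjusted p under 0.05, of which 8 rose. Among all 744 that number was 55, of which 26 rose. The low run of points just after 28S-2411, 28S-2424 among them, lies where the end counts drop after position 2423. The count of called positions was 26 without replicate 2 of control KD without vector (17 higher, 9 lower). Without replicate 1 of control KD with empty vector it was 227 (159 higher, 68 lower), and 1909 of the 5444 over all rRNA, leaving replicate 2 as the only control with a vector.

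With wild-type FBL against empty vector, 7 of the 917 positions fell and 0 rose, where 0.569% of all tested positions fell and 0.0% rose (edgeR, adjusted p under 0.05). All 7 were listed sites: 28S-2411 (-1.90), 28S-2351 (-1.71), 28S-2824 (-1.51), 28S-2338 (-1.33), 28S-2791 (-1.27) and 28S-2388 (-1.11, log2 ratio of ends to flanks), and, with the smallest change, 28S-2802. Of the 17 listed sites 15 had an unadjusted p under 0.05 by edgeR, or 88.2%, against 2.62% of the 917 tested positions. Limma called 2 and DESeq2 11 positions, and with any of the 4 libraries left out 1 or 2 were called by edgeR.

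**Figure D5:**
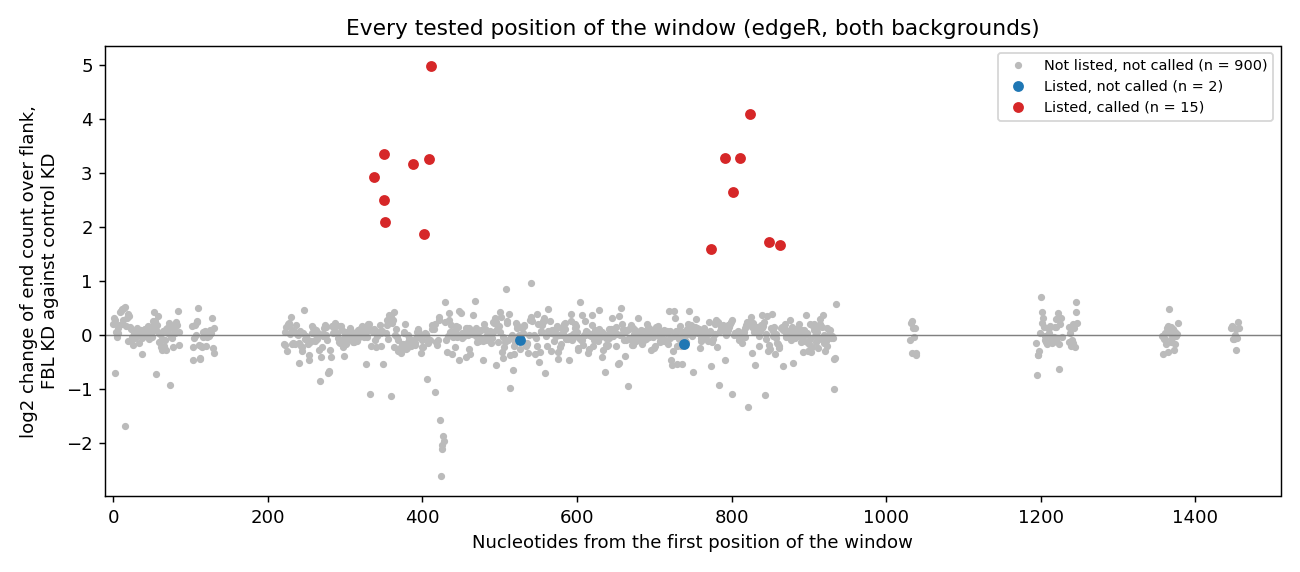
Change in the log2 ratio of end count to flank, FBL KD against control KD over both backgrounds, for the 917 tested positions by distance in nucleotides from the start of the stretch; red and blue points are listed sites, called and not called by edgeR, and grey points are positions that are not listed. The 15 red points lie between 1.59 and 4.97 and no grey point was called.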

How the data were processed

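RiboMethSeq libraries of total RNA from 19 Kasumi-1 samples were analysed from 2 tables. The authors deposited raw end counts per rRNA position, which are whole-number counts with no normalization, and, for 120 sites, score C, a fraction that runs from 0 to 1. Trimming and alignment used cutadapt and Bowtie2, per the submitters' processing notes; the sources used here do not give their versions, the rRNA reference or which fragment end was counted. Score C was recomputed from the deposited counts, reading a site 1 position downstream, and equalled the deposited fraction within 1e-09 in 2280 of 2280 values, after negative values (117, of which 16 in the stretch) were set to 0. Here they were kept.

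Groups came from the sample titles. Changes in score were tested with limma 3.58.1 (R 4.3.3) on all 120 sites, with group coefficients, a trended variance and Benjamini-Hochberg adjustment at 0.05; knockdown comparisons used the 14 knockdown libraries, with a common estimate of spread, and the SNORD127 comparison all 19. Positions were tested with edgeR 4.0.16 on the counts with the log flank mean as offset, for flank means of at least 50. DESeq2 1.42.0 was an alternative, as were a log2 ratio scale (pseudocount 1), other flanks, equal library medians, no trend, the compared groups alone, a filter on low flanks, a replicate block and each library left out. Python 3.11.15, numpy 2.4.6, pandas 2.3.3 and matplotlib 3.10.9 served for counts and plots.

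All 17 sites are named; full statistics are given for the 8 largest knockdown changes, 28S-2402, every site of the interaction and up to 5 called sites in each other comparison. The stretch, lists and rules were chosen with earlier results of these data known. On simulated data for the knockdown comparison over both backgrounds, limma (120 sites) recovered 73.5% of changes of 0.05, 82.8% of changes of 0.1 and 92.5% of changes of 0.2, with 3.58% of unchanged sites called, and edgeR 79% and 97% of positions changed by 1 and 2 on the log2 scale and 0.0381% of unchanged ones (5444 positions). The simulated counts had the same dispersion of 0.05 everywhere, and the flanks were kept as observed. These rates hold for that setting only, as the spread of the real libraries was not simulated. Replicate pairs differed by a chi-square of 16.2 to 346 per degree of freedom over the stretch, so none agreed within sampling noise. The rRNA and guide sequences were not used here.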

Additional observations from a re-analysis of the deposited data

Results flagged for a closer look

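The knockdown effect differed between the vector backgrounds at 10 sites, by a limma test of the difference itself. Subtracting the effect without vector from that with empty vector gave -0.457 at 28S-2402, -0.408 at 28S-2388, -0.278 at 28S-2848, -0.116 at 28S-2802 and -0.109 at 28S-2811. It was -0.087 at 28S-2411, -0.083 at 28S-2824, -0.072 at 28S-2791 and -0.047 at 28S-2338. At 28S-2409 it was 0.073, the only one of the 10 with a smaller loss with empty vector. Groups held 2 libraries each, too few for a check for single samples far from their group.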

How the results depend on the processing

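Of the counts of called sites and positions and the mean score, 145 values under other settings stayed within 1.5 times of the main value (or 1 SD for the mean) and 28 did not. The counts took both directions together. The knockdown over both backgrounds with equal medians, at 12 lower and 3 higher, thus counts as 15 and as not moved. Those that moved, beside the main count, were as follows. Sites differing between backgrounds numbered 10; the count was 1 on the log2 ratio scale, 6 with library medians made equal, 5 with the compared groups alone and 5 to 10 with a library left out. Wild-type FBL against empty vector gave 15, and 9 with equal medians; FBLTri against wild type gave 15, and 9 with equal medians. FBLTri against empty vector gave 10, and 0 on the log2 scale and 5 to 8 with a library left out. FBLQua against empty vector gave 2; deposited scores gave 5, no variance trend 7, dropping the 10% of sites with fewest flanking ends 4, the log2 scale 0, the compared groups alone 0, and a library left out 1 to 2. The position test of the knockdown gave 15, and 14 to 227 with a library left out. That of wild-type FBL gave 7; limma gave 2, DESeq2 11, library sizes by TMM in place of flanks 0, and a library left out 1 to 2. The cause was not tested.

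Among the sites given full statistics in a comparison, the reversed values were all of the difference between backgrounds on the log2 scale. They were 0.394 at 28S-2811, 0.177 at 28S-2791 and 0.238 at 28S-2338. In that tally 749 values kept direction and side of the threshold, 70 lost the call and 1 gained it. Sites outside the tally reversed as well. With library medians made equal, 28S-2351 changed by 0.050 in the knockdown over both backgrounds and by -0.030 with wild-type FBL against empty vector. With the replicate number as a block the knockdown over both backgrounds again called 15 sites, the difference between backgrounds 9, FBLQua against empty vector 3 and the position test of wild-type FBL 5. The labels do not say that the numbers pair libraries, and the correlation of the deviations of same-numbered libraries ran from -0.165 to 0.804, above 0.1 in 13 of 21 pairs of groups. As the correlation was not above 0.1 in every pair, the libraries were not treated as paired. It was highest, 0.804, between FBLQua and wild-type FBL, and 0.461 between FBLTri and wild-type FBL, groups that were compared above. With the block, FBLTri and FBLQua were again each lower than wild-type FBL at 15 sites. Depth limits 28S-2527 and 28S-2739 most, with counting half-widths of up to 0.133 and 0.155.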

Other observations

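The end of the pile at positions 2423 and 2424 is visible in every library, and it was noticed after the values were seen. In FBL KD without vector the counts fell from 154792 to 555 in replicate 1 and from 120188 to 226 in replicate 2, and in control KD without vector from 18257 to 1411 and from 81598 to 350. With empty vector they fell from 21370 to 2852 and from 30305 to 2770 in FBL KD, and from 19923 to 2720 and from 21680 to 1273 in control KD. Replicate 2 of control KD without vector thus had a drop of the order of those of FBL KD without vector, and replicate 1 one of the order of those with empty vector.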
